A study of Mus musculus with 18 samples.

Results

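Old and young fracture callus were compared on day 3 after a broken femur. The comparison holds every array labelled as taken 3 days after fracture, 6 of the 18 in the series. There were 3 arrays of old mice of 8 months, which were retired breeders, and 3 of young mice of 6 weeks. The animals of both groups were female, and the labels name a femur fracture as their only treatment and no engineered allele. The sample labels give BALB/c as the strain of every array, whereas the design text gives c57BI6. Breeding history and skeletal maturity go with age in these groups and cannot be told apart from it. The remaining 12 arrays came from the same 2 ages on days 1 and 5, with 3 arrays in each group, and served here as the frame for day 3. The labels call the arrays replicates without saying that each came from its own animal, so a p-value here is set by the variation among these arrays, part of which may be technical.

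A fractured long bone first fills with a blood clot and inflammatory cells. Macrophages then clear debris while fibroblasts and periosteal progenitors lay down a collagen-rich granulation tissue, which is replaced by cartilage and later by bone. Day 3 falls at the passage from inflammation to granulation tissue in the mouse. Total RNA of the whole dissected callus was hybridised, so fewer cells of a type and less RNA per cell cannot be told apart in any value given here. Each of 27746 probe sets, the groups of short oligonucleotides that report a transcript on the Affymetrix mouse genome array, was tested. Levels are log2(signal + 16) after quantile normalization, on which a signal of 0 lies near 4. Array medians lay between 5.7 and 6.47 before normalization, and whether a transcript was detected was not tested. Differences are old minus young in log2 units with the standard error (SE) of the limma fit. A difference was called at an adjusted p under 0.05 (limma, Benjamini-Hochberg over all probe sets). No level is compared between genes.

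The 3 old arrays resembled each other more closely than the 3 young ones. Pairs of old day 3 arrays correlated at 0.961 to 0.971 over the tested probe sets, and pairs of young day 3 arrays at 0.81 to 0.905. The share of probe sets that spanned more than 2 log2 units within a group was 0.22% in old and 5.33% in young callus. Muscle content was summarised by a score, for which each of 30 muscle genes was set against its own average over the 18 arrays and the deviations were averaged. It was -0.17, -0.48 and 0.06 on the old arrays. On young replicates 1, 2 and 3 it was 1.18, -4.50 and -0.52. Young replicate 2 therefore held the least muscle RNA and young replicate 1 the most. Myh4, the myosin heavy chain of fast muscle fibres, read 13.50, 13.71 and 13.63 in old callus and 14.46, 7.98 and 13.23 in young callus. The Actb 3' to 5' signal ratio, a measure that rises as RNA degrades, was 1.61, 1.37 and 1.56 on the old arrays and 1.56, 2.52 and 2.37 on the young ones. An exact two-sided permutation test of the ages gave p = 0.3 for these ratios, where 0.1 is the smallest value that 3 against 3 arrays allow. Young replicate 1 had a ratio in the range of the old arrays, and young replicates 2 and 3 lay above it.

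**Figure D1:**
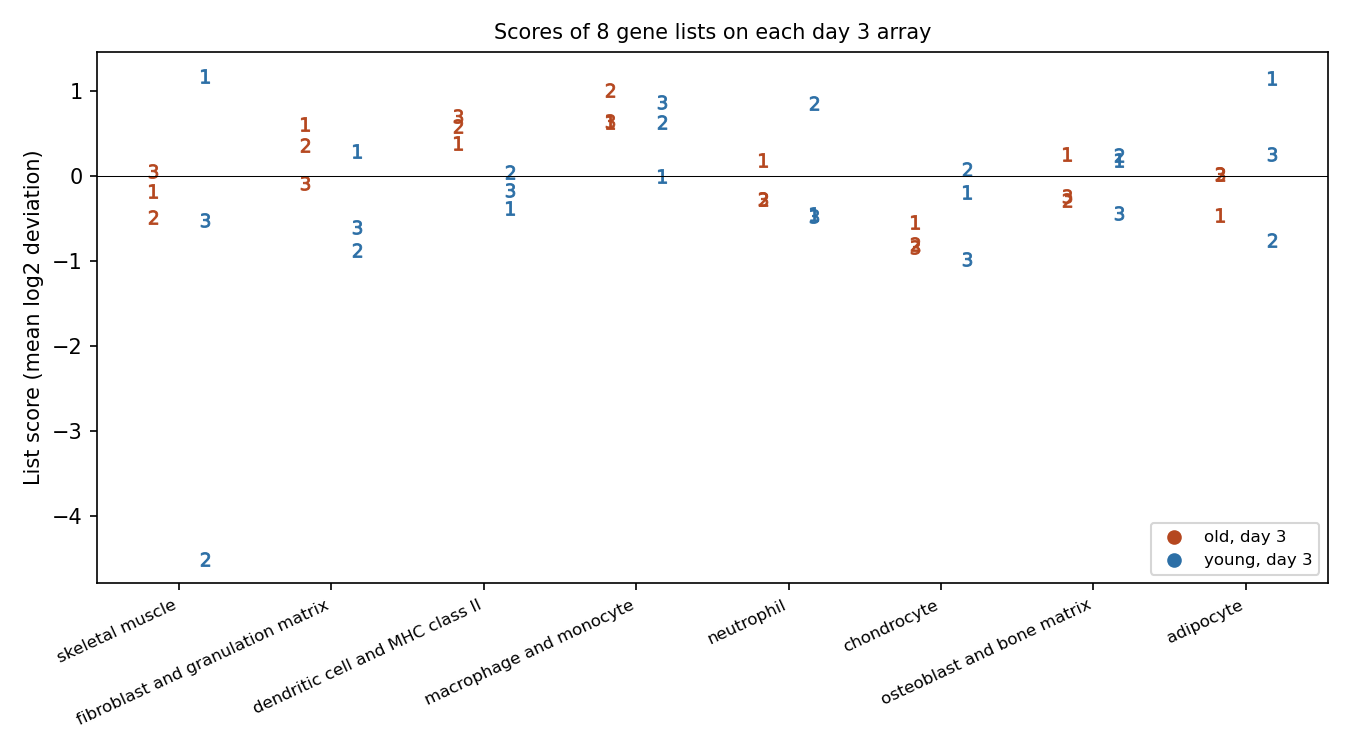
Scores of 8 gene lists (vertical axis, mean log2 deviation from the average over the 18 arrays) on each day 3 array, with old arrays in orange, young arrays in blue and the replicate number as the symbol. Young replicate 2 lies at -4.50 on the muscle list, and the 3 old arrays lie above all 3 young arrays on the dendritic cell and MHC class II list.

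Few probe sets passed the test on day 3. Old callus was higher at 7 (0.0252%) and lower at 9 (0.0324%) of 27746 probe sets, 16 in all or 0.0577%, and 3073 probe sets (11.1%) had an unadjusted p under 0.05. Counted once per gene through the probe set with the highest mean, 3 of 12921 genes were higher (0.0232%) and 3 lower (0.0232%), 6 in all or 0.0464%. A log2 difference over 1 was reached by 211 genes (1.63%) and one under -1 by 89 genes (0.689%). Of the 6 arrays left out in turn, young replicate 1 moved the count most. Without it 909 probe sets were higher and 693 lower, 1602 in all. Leaving out young replicate 2 gave 10 calls, young replicate 3 gave 5, old replicate 1 gave 8 and old replicate 2 gave 7. Centring each array on its median in place of quantile normalization moved the median of all probe sets from 0.012 to 0.219 and gave 124 higher against 19 lower calls, 86.7% higher in place of 43.8%. In a simulation that gave each probe set the same spread on every array, differences of 1 were called in 11 of 50 probe sets. Differences of 2 were called in 47 of 50. The wider spread of the young day 3 arrays was not simulated. A doubling often went uncalled in that simulation, and the rate at the spread of these arrays was not tested.

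**Figure D2:**
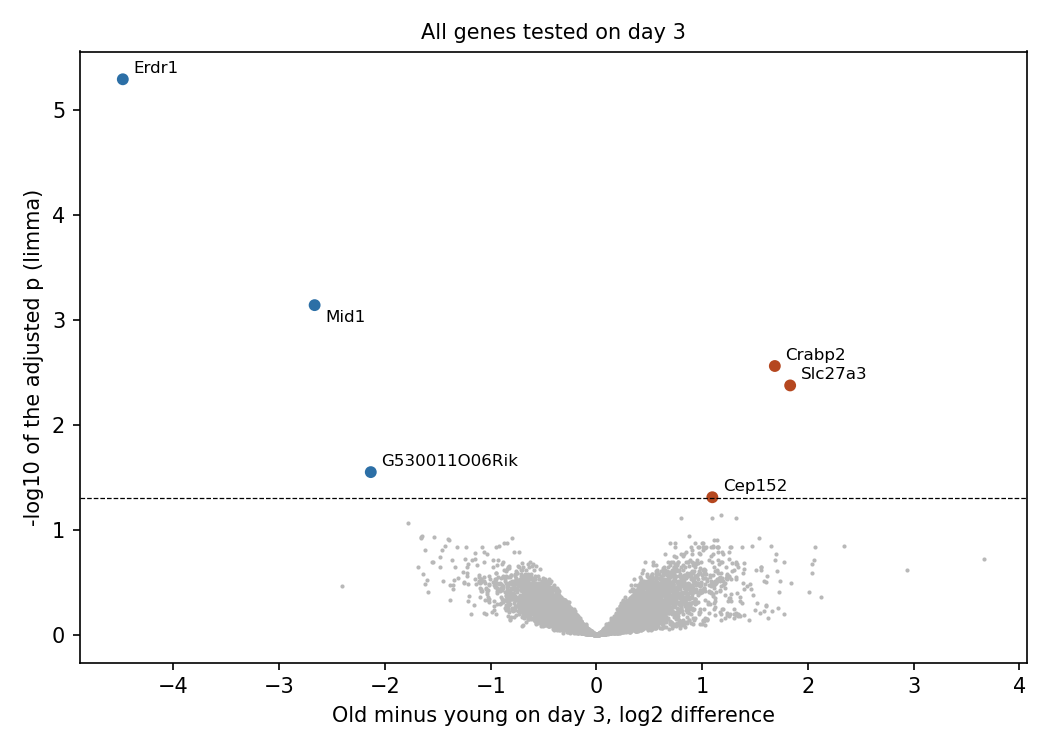
The old minus young log2 difference of each of 12921 genes on day 3 (horizontal axis) against the -log10 of its limma adjusted p (vertical axis). The dashed line marks an adjusted p of 0.05, and the 6 named genes above it are Erdr1, Mid1 and G530011O06Rik, lower in old callus, and Crabp2, Slc27a3 and Cep152, higher in old callus.

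Erdr1 and Mid1 showed the largest called differences among named genes. Erdr1, a secreted regulator first described in erythroid differentiation, read 6.49, 6.86 and 7.78 on the old day 3 arrays and 11.79, 11.80 and 10.98 on the young ones. All 3 old arrays lay more than 3 log2 units below every young array. The difference was -4.48 ± 0.36 (adjusted p = 5.15e-06), a 22.3-fold lower signal on the log2(signal + 16) scale. A second, dimmer Erdr1 probe set gave -0.81 ± 0.47 with overlapping arrays and an adjusted p of 0.555. Mid1, a ubiquitin ligase that binds microtubules, read 6.71, 6.41 and 6.23 in old and 8.92, 9.34 and 9.09 in young callus. The groups did not overlap, and the difference was -2.67 ± 0.30 (adjusted p = 0.000727). Erdr1 and Mid1 both lie at the pseudoautosomal end of the X chromosome in the mouse. Erdr1 was called in 20 of 20 alternative settings that measured it and Mid1 in 18 of 21. The called Erdr1 probe set, 1452406_x_at, is of a kind that can cross-hybridise. The alternative without such probe sets left it out, so that check could not be applied to it.

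The gene G530011O06Rik was the third named gene with a lower signal. It read 5.15, 5.63 and 5.01 on the old arrays and 7.18, 7.29 and 7.72 on the young ones, with no overlap. The difference was -2.13 ± 0.35 (adjusted p = 0.0283), and it was called in 9 of 20 alternatives. Another 6 of the 9 lower probe sets have no single gene name in the annotation. The largest difference of these belonged to 1439200_x_at, which read 5.99, 5.09 and 4.67 in old and 8.94, 9.17 and 9.08 in young callus, a difference of -3.82 ± 0.30 (adjusted p = 5.15e-06) that held in 20 of 20 alternatives. The next, 1440815_x_at, differed by -3.49 ± 0.51 (adjusted p = 0.00813). Both are also of the kind that can cross-hybridise, and the alternative without such probe sets left them out. With single arrays left out, G530011O06Rik was called only without young replicate 1, with an adjusted p from 0.00759 to 0.221 over the 6 arrays.

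Among the 7 probe sets with a higher signal in old callus, Slc27a3 had the largest difference of a named gene. Slc27a3 belongs to the fatty acid transport protein family and read 6.22, 6.30 and 6.02 on the old and 4.61, 4.21 and 4.22 on the young arrays. The difference was 1.83 ± 0.24 (adjusted p = 0.00423), and the young values lay near the bottom of the scale, so the fold is understated. Crabp2, which carries retinoic acid to its nuclear receptor, read 7.70, 7.64 and 7.70 in old and 6.44, 6.07 and 5.46 in young callus. Its 3 old arrays lay within 0.06 of each other and above every young array, with a difference of 1.69 ± 0.21 (adjusted p = 0.00276). Cep152, a scaffold of centriole duplication, read 6.32, 6.44 and 6.60 in old and 5.40, 5.19 and 5.48 in young callus, a difference of 1.10 ± 0.19 (adjusted p = 0.049). Crabp2 was called in 17 of 21 alternatives, Slc27a3 in 16 of 20 and Cep152 in 4 of 20. Crabp2 and Slc27a3 were called with each of the 6 arrays left out in turn, whereas Cep152 was called only without young replicate 1, with an adjusted p from 0.0112 to 0.267 over the 6 arrays. In a fit of only the 6 arrays of day 3, 0 probe sets were called higher in old callus, so none of these genes was called there. The same held with the Actb ratio as a covariate.

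Wdfy1 and Col8a1 were called through probe sets that do not represent their genes in the count per gene, and are named after their values were seen. Wdfy1, an endosomal adaptor with a FYVE domain, has 4 tested probe sets, and on each of them the 3 old arrays lay above the 3 young ones. The called ones differed by 1.58 ± 0.22 (adjusted p = 0.00712) and 1.42 ± 0.24 (adjusted p = 0.0342). The first read 7.11, 7.58 and 7.83 in old and 5.90, 5.98 and 5.92 in young callus, and had an adjusted p of 0.0627 without old replicate 2 and 0.0528 without young replicate 3. The second was called in 9 of 21 alternatives and had an adjusted p of 0.145, 0.254 and 0.0631 without old replicates 1, 2 and 3 and of 0.222 without young replicate 3. The other two differed by 1.10 ± 0.21 (adjusted p = 0.0775) and 1.35 ± 0.41 (adjusted p = 0.244). Col8a1 encodes a short-chain collagen of vessel walls and remodelling tissue. Its called probe set read 6.55, 5.95 and 5.94 in old and 4.60, 4.38 and 4.90 in young callus, a difference of 1.52 ± 0.26 (adjusted p = 0.0459). These young values lay near the bottom of the scale. The 2 brighter probe sets of Col8a1 gave 0.73 ± 0.28 and 0.14 ± 0.23 with overlapping arrays, so its probe sets disagree on the size of the difference. With single arrays left out, the called one passed only without young replicate 1, with an adjusted p from 0.0123 to 0.262.

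**Figure D3:**
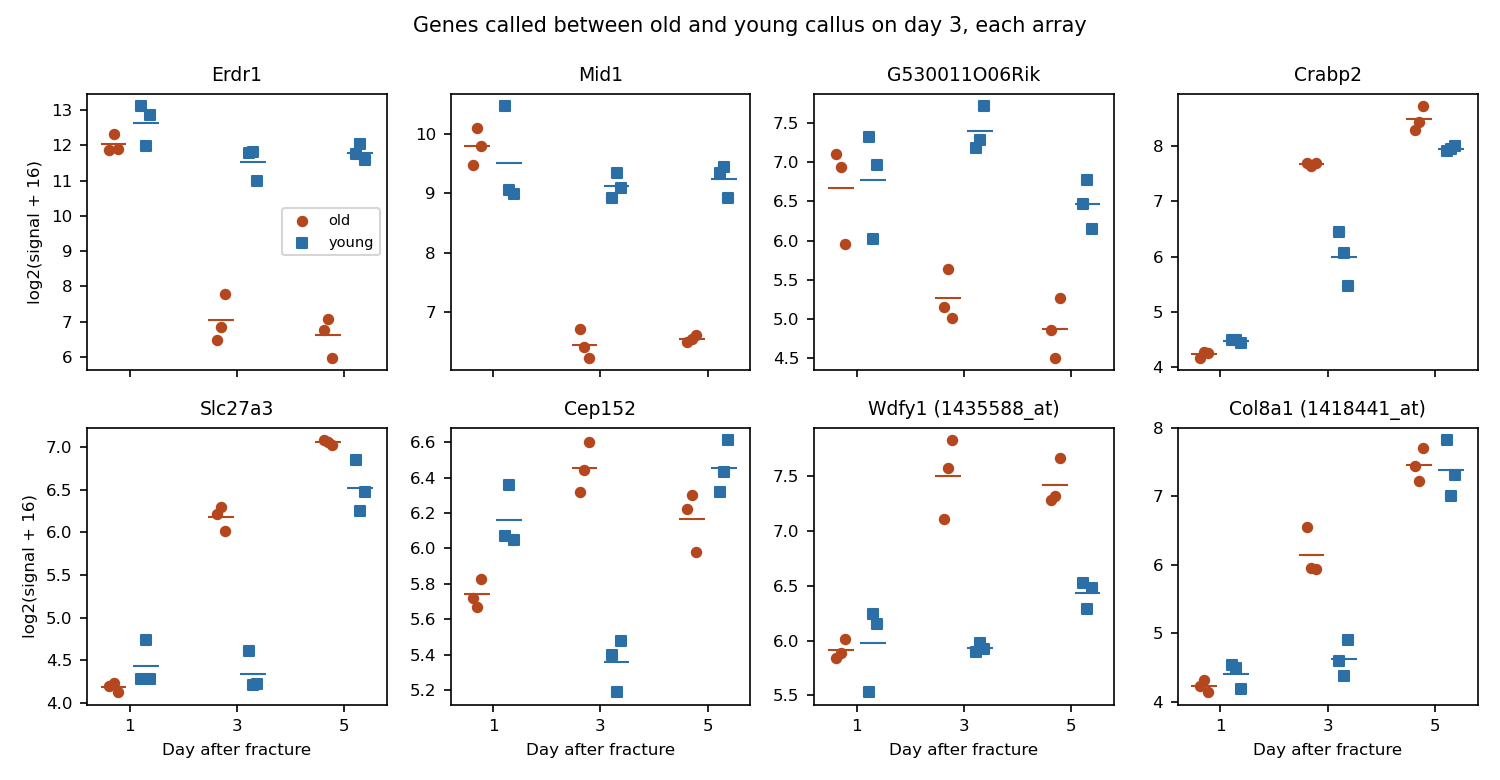
Levels of 8 genes called on day 3, as log2(signal + 16) on the vertical axis, by day after fracture; each point is an array, orange for old and blue for young, and the line is the group mean. Erdr1 and Mid1 are low on old arrays of days 3 and 5 only, whereas Crabp2, Slc27a3 and Col8a1 are low on day 1 and high on day 5 at both ages, with Crabp2 means of 4.23 and 4.48 on day 1 and 8.48 and 7.95 on day 5.

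The called probe sets differed in their course over the days. For one set of genes the ages lay close on day 1 and apart on days 3 and 5. Erdr1 averaged 12.02 in old and 12.64 in young callus on day 1, and 6.61 and 11.79 on day 5. Mid1 averaged 9.79 and 9.51 on day 1, and 6.55 and 9.24 on day 5. The first Wdfy1 probe set averaged 5.92 in old and 5.97 in young callus on day 1, and 7.42 and 6.44 on day 5. Other genes were low at both ages on day 1 and high at both on day 5, with the ages apart on day 3. Crabp2 averaged 4.23 in old and 4.48 in young callus on day 1, 7.68 and 5.99 on day 3, and 8.48 and 7.95 on day 5. Slc27a3 averaged 4.18 and 4.43 on day 1, 6.18 and 4.35 on day 3, and 7.06 and 6.52 on day 5. The called Col8a1 probe set averaged 4.23 and 4.40 on day 1, 6.15 and 4.63 on day 3, and 7.46 and 7.38 on day 5. The opposite course, high at both ages on day 1 and lower at both on day 5, was seen for several unnamed probe sets. Of these, 1440815_x_at averaged 11.73 in old and 11.14 in young callus on day 1, 6.80 and 10.28 on day 3, and 5.55 and 5.57 on day 5. The others were 1449832_at, 1442812_at, 1452452_at and 1428301_at. On day 1 they averaged 10.01, 10.24, 9.03 and 10.38 in old and 9.12, 9.55, 8.17 and 10.02 in young callus. On day 5 the averages were 4.98, 5.26, 4.56 and 8.09 in old and 5.47, 5.34, 4.57 and 7.69 in young callus. Cep152 followed none of these, at 5.74 and 6.16 on day 1 and 6.17 and 6.45 on day 5.

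The age comparison on day 5 called 3 probe sets (0.0108%), namely Erdr1, Mid1 and 1439200_x_at. All 3 were also called on day 3 in the same direction, 18.8% of the day 3 calls. The age comparison on day 1 called 64 probe sets (0.231%), and 0 of them were among those of day 3. The age comparisons of different days use different arrays. Nnt, a mitochondrial proton-pumping transhydrogenase whose gene is disrupted in one C57BL/6 substrain, was checked because the labels disagree on the strain. It read 9.28, 9.08 and 9.12 on the old and 8.78, 7.98 and 7.81 on the young day 3 arrays, a difference of 0.97 ± 0.25 that was not called (adjusted p = 0.168). On day 5 the difference of Nnt was 1.14 ± 0.25, and on day 1 it was -0.37 ± 0.25. Its other tested probe set gave 0.89 ± 0.36 on day 3, 1.34 ± 0.36 on day 5 and -0.44 ± 0.36 on day 1. Xist, the RNA of the inactive X chromosome, differed by 0.23 ± 0.20 on day 3 with overlapping arrays. Whether a difference in strain between groups had a part in the Erdr1, Mid1 and Nnt values was not tested.

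Genes of antigen presentation were described as a group, and none of them was called. MHC class II molecules display peptides taken up by macrophages, dendritic cells and B cells, and the CCAAT-containing Y box upstream of their genes is bound by the factor NF-Y. Of 16 genes in a dendritic cell and MHC class II list, 12 were measured. In 8 of the 12 the 3 old arrays lay above all 3 young ones, and in 0 below, against 6.99% and 5.32% of all genes. The median difference of the list was 0.83, beside 0.02 over all genes, and stood at 0.11 on day 1 and -0.12 on day 5. The promoters of H2-Aa and H2-Eb1 are shown because these genes stood apart together on day 3 and share the core of the Y box. The sequences are the 250 bases upstream of the annotated start, from RefSeq on GRCm38.p6, at chr17:34287824-34288073 on the minus strand for H2-Aa and chr17:34305617-34305866 on the plus strand for H2-Eb1. Capitals mark the motif.
H2-Aa: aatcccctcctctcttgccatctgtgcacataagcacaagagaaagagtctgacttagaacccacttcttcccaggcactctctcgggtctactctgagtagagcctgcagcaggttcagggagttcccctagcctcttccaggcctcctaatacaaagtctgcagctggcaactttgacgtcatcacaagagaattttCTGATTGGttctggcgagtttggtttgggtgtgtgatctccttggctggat
H2-Eb1: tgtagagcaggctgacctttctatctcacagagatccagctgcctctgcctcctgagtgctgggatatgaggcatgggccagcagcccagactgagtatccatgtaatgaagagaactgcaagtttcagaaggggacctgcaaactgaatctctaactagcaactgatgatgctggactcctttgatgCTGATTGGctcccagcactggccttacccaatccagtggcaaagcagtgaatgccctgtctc
The motif CTGATTGG, or CCAATCAG on the other strand, was searched in windows from 250 bases before to 50 after each start. It was present in 3 of the 8 measured list genes with an entry, H2-Aa, H2-Eb1 and H2-Oa, and in 4.1% of 32851 windows. The motif did not follow the separation of the arrays gene by gene. H2-Oa has it and overlapped between the ages, and Flt3, Itgax and Cd209a lack it and did not overlap. H2-DMa and Zbtb46 lack it and overlapped. A match of these letters is a description of the sequence only.

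Cd74, the invariant chain that escorts class II molecules, read 11.09, 11.34 and 11.37 on the old and 9.59, 10.29 and 9.97 on the young arrays. The difference was 1.32 ± 0.25 (adjusted p = 0.0775), and 1.14 with an adjusted p of 0.0227 without young replicate 1. Leaving out each other day 3 array in turn gave an adjusted p from 0.0602 to 0.477. The class II chain gene H2-Ab1 read 9.59, 9.86 and 9.90 in old and 8.43, 8.82 and 8.53 in young callus, a difference of 1.19 ± 0.30 (adjusted p = 0.162). H2-Eb1 read 10.11, 10.43 and 10.55 against 8.81, 9.77 and 9.51, a difference of 1.00 ± 0.30 (adjusted p = 0.242). H2-Aa, named after its values were seen, differed by 0.91 ± 0.25 (adjusted p = 0.205). In each of these 4 genes the lowest old array lay above the highest young one. Ciita, the coactivator that switches class II genes on, differed by 0.72 ± 0.29. The dendritic cell genes Flt3, a growth factor receptor, Itgax, which encodes CD11c, and Cd209a, a lectin, differed by 0.96 ± 0.35, 0.75 ± 0.23 and 1.00 ± 0.30, each without overlap. H2-DMa, H2-Oa, Cd83 and Zbtb46 overlapped between the ages. B cells also carry class II molecules, and the B cell and plasma cell list had a median of -0.01 over 19 measured genes with 1 higher and 2 lower without overlap, against 6.99% and 5.32% of all genes. Which cells carried the class II signal was not tested.

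**Figure D4:**
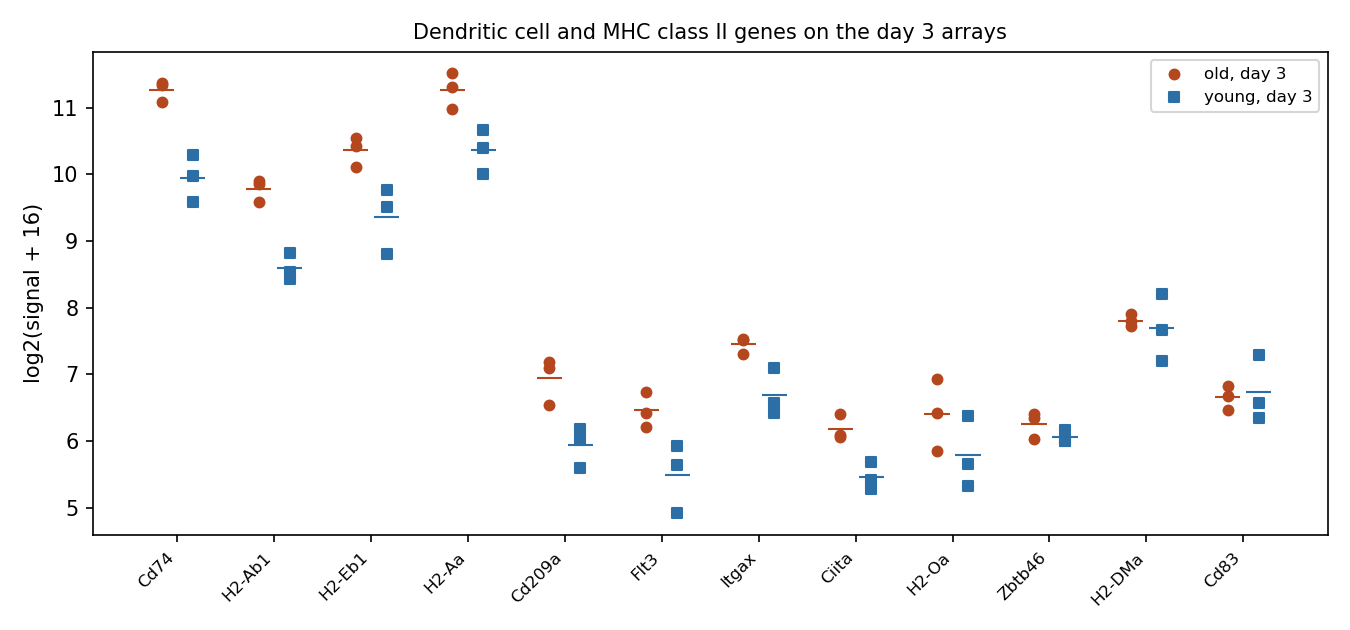
Levels of the 12 measured dendritic cell and MHC class II genes as log2(signal + 16) on the 3 old (orange) and 3 young (blue) arrays of day 3, with group means as lines. The 2 groups do not overlap for the first 8 genes from Cd74 to Ciita, and overlap for the last 4.

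Macrophages are the main clearing cells of the early callus. Of 24 measured macrophage and monocyte genes, 0 were called, and in 4 the old arrays lay above the young ones without overlap and in 0 below, against 6.99% higher and 5.32% lower of all genes, with a list median of 0.25. Apoe, a lipid carrier made by macrophages, read 13.06, 12.96 and 12.56 in old and 11.81, 12.24 and 12.37 in young callus, a difference of 0.72 ± 0.27 (adjusted p = 0.329). C1qa, a chain of the first complement component, differed by 0.65 ± 0.32, and Csf1r, the receptor that keeps macrophages alive and named after its values were seen, by 0.50 ± 0.18. The list score was lowest on young replicate 1, at -0.0038, and from 0.63 to 1.01 on the other 5 arrays, and without that array the list median was 0.10. Lysosome genes numbered 14 measured, of which 5 were higher on every old array and 0 lower, against the same shares of all genes (6.99% and 5.32%), with a median of 0.19. Psap, the precursor of lysosomal sphingolipid activators, read 12.47, 12.70 and 12.18 in old and 11.77, 11.46 and 11.71 in young callus. Its difference of 0.80 ± 0.15 had an adjusted p of 0.0775, and of 0.00939 without young replicate 1. Without old replicate 1 or 2, or without young replicate 2 or 3, 0 lysosome genes were called. The proteases Ctsd and Ctsl and the granulin gene Grn differed by 0.57 ± 0.17, 0.53 ± 0.22 and 0.56 ± 0.17. In the complement and coagulation list 4 of 16 genes were higher without overlap and 0 lower, against 6.99% higher and 5.32% lower of all genes, with a median of 0.54. C5ar1, the receptor for the complement fragment C5a, differed by 1.03 ± 0.32 (adjusted p = 0.265) and Plat, the tissue plasminogen activator, by 1.15 ± 0.28 (adjusted p = 0.146).

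Granulation tissue matrix genes mostly had a positive difference on day 3, and whether they passed the test depended on young replicate 1. Of 28 genes in a fibroblast and granulation matrix list, 26 were measured, 23 had a positive difference, as had 52.8% of all genes, and 0 were called through their representative probe sets. In 3 genes the old arrays lay above the young ones without overlap, against 6.99% of all genes, and in 0 below, against 5.32%. The median difference was 0.79, beside 0.02 over all genes. The score of the list was 0.61, 0.36 and -0.08 on the old arrays. Young replicates 2 and 3 scored -0.87 and -0.60, below every old array, and young replicate 1 scored 0.29, within the old range. Without young replicate 1 the median was 1.10 and 14 of the 26 genes were called higher and 0 lower, while 487 genes were called higher (3.77%) and 284 lower (2.2%) among all genes. Leaving out any other single day 3 array gave 0 calls among the 26 genes. With young replicate 1 as the only young array the median was 0.04. Young replicate 1 also had the highest muscle score of the 6 arrays and an Actb ratio in the old range. With the Actb ratio as a covariate the matrix median was 0.19, and with the muscle score as a covariate it was 0.67.

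The fibrillar collagens show how the arrays lay. Col1a1, the main collagen of bone and scar, read 13.87, 13.63 and 12.88 on the old arrays and 14.02, 12.59 and 12.12 on the young ones. The difference was 0.55 ± 0.35 with overlapping arrays, and 1.12 (adjusted p = 0.0232) without young replicate 1. Col3a1, the collagen of early granulation tissue and named after its values were seen, differed by 0.93 ± 0.31, and by 1.38 (adjusted p = 0.00903) without that array. Col5a1, which sets the diameter of collagen fibrils, read 12.42, 11.94 and 10.79 in old and 11.42, 9.55 and 9.98 in young callus, a difference of 1.40 ± 0.42 (adjusted p = 0.234). Among adhesive glycoproteins, Postn differed by 1.24 ± 0.40, Thbs2 by 1.32 ± 0.45, Tnc by 1.12 ± 0.39 and Fn1, named after its values were seen, by 1.06 ± 0.41. Without young replicate 1 these were 1.74, 1.92, 1.46 and 1.63, with adjusted p of 0.0155, 0.0131, 0.0447 and 0.0164. Lox, the enzyme that cross-links collagen and elastin, read 12.31, 12.07 and 11.71 in old and 11.62, 10.77 and 10.84 in young callus, a difference of 0.95 ± 0.31 without overlap (adjusted p = 0.275). The collagen chaperone gene Serpinh1 differed by 0.83 ± 0.28 and the membrane protease gene Mmp14 by 0.93 ± 0.33. Timp1, an inhibitor of matrix metalloproteinases, read 12.27, 11.98 and 11.44 against 11.18, 10.24 and 10.49, a difference of 1.26 ± 0.30 without overlap (adjusted p = 0.146).

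The age difference of the matrix genes on day 3 was set against that of day 1 by testing the difference of the differences. At 100 of 27746 probe sets this was positive (0.36%) and at 64 negative (0.231%), 164 calls in all (0.591%), and 4360 (15.7%) had an unadjusted p under 0.05. Of the 16 probe sets called on day 3, 14 were among them. Both tests hold the same day 3 difference, so this overlap is not separate support for the day 3 calls. Per gene, 44 of 12921 were positive (0.341%) and 23 negative (0.178%), 67 in all or 0.519%. The matrix list gave 6 positive calls of 26 and 0 negative ones, Col5a1, Col5a2, Col12a1, Aspn, Lum and Lox. Its median age difference went from -0.97 on day 1 to 0.79 on day 3 and 0.26 on day 5. On day 1, 16 of the 26 genes were lower on every old array, against 7.21% of all genes, and 0 higher, against 5.47%. On day 5, 11 were higher without overlap, against 7.1% of all genes, and 0 lower, against 9.87%. The Actb 3' to 5' ratio on day 1 was 2.67, 2.52 and 2.27 on the old arrays. On the young day 1 arrays it was 2.10, 2.04 and 2.13, below every old one. Whether RNA quality had a part in the day 1 age differences was not tested. Aspn, a proteoglycan that binds collagen, averaged 6.95 in old and 8.83 in young callus on day 1, and read 10.52, 10.59 and 10.64 in old and 9.83, 8.79 and 10.51 in young callus on day 3. Its age difference was -1.88 ± 0.32 on day 1 and 0.88 ± 0.32 on day 3, apart by 2.76 ± 0.46 (adjusted p = 0.0199). Col5a2 went from -1.34 ± 0.29 to 0.72 ± 0.29 (apart by 2.06 ± 0.40, adjusted p = 0.0349). Col12a1, a collagen on the surface of fibrils, went from -1.45 ± 0.39 to 1.23 ± 0.39, apart by 2.68 ± 0.56 (adjusted p = 0.0419). Lox was apart by 2.19 ± 0.44, Lum, another small proteoglycan, by 1.64 ± 0.32 and Col5a1 by 2.65 ± 0.59, with adjusted p of 0.0378, 0.0349 and 0.0495.

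These calls moved with single arrays and with the scaling. Without young day 3 replicate 1 there were 1737 calls, and without replicates 2 and 3 of that group 58 and 17. Leaving out old day 3 replicates 1 and 2 gave 6 and 15 calls. Leaving out old day 1 replicates 1 and 2 gave 108 and 465, and leaving out young day 1 replicates 2 and 3 gave 55 and 40. Centring arrays on their medians gave 1923 positive and 144 negative calls (93.0% positive in place of 61.0%) with the median of all probe sets at 0.416, and the values as deposited gave 112 and 168 (40.0%). With the Actb ratio as a covariate 0 were called, and 2765 had an unadjusted p under 0.05 in limma. The median of the matrix list was 1.60 with quantile normalization, against 0.06 over all genes, 1.60 for the deposited values, against 0.03, and 2.08 for centred arrays, against 0.51.

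**Figure D5:**
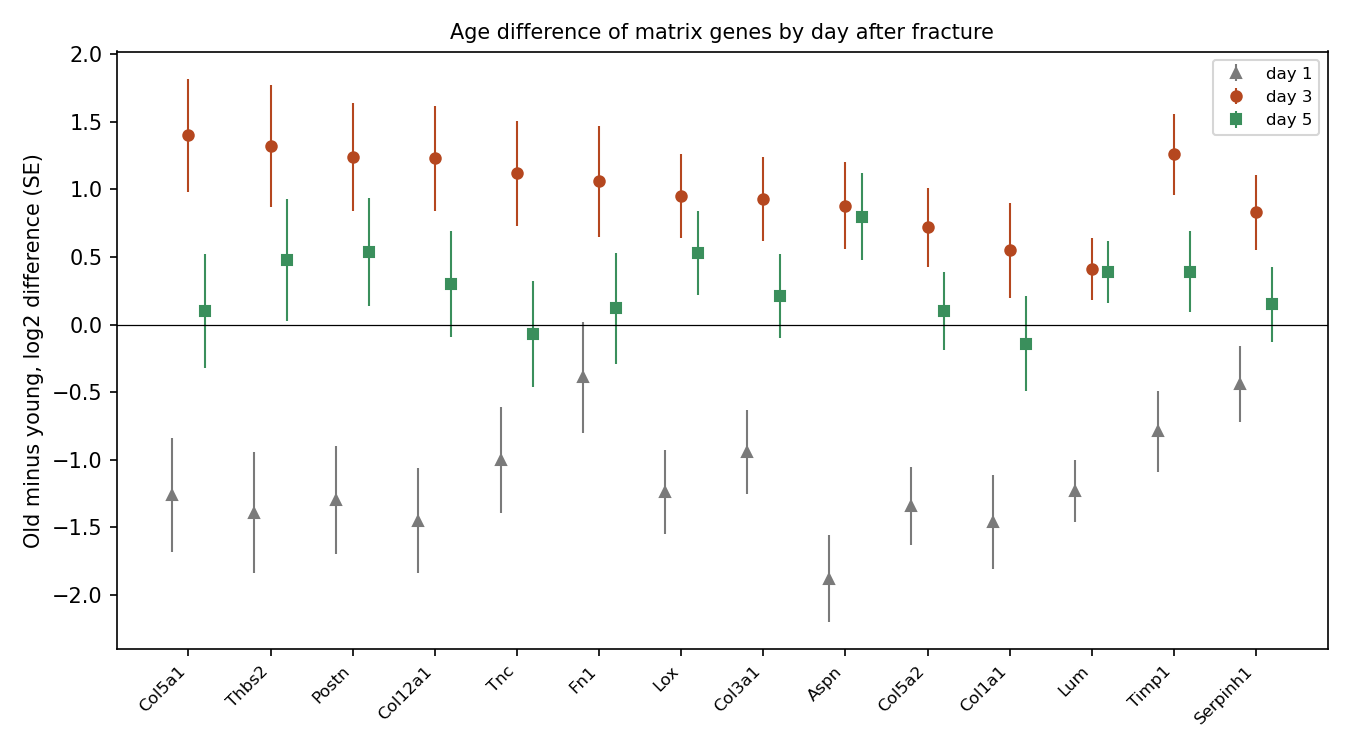
Old minus young log2 difference with its SE (vertical axis) for 14 matrix and matrix-processing genes on day 1 (grey triangles), day 3 (orange circles) and day 5 (green squares). Every gene shown lies below 0 on day 1 and above 0 on day 3, from -1.88 to -0.39 and from 0.41 to 1.40, and day 5 lies between -0.14 and 0.80. The 14 genes were picked by hand and include Timp1 and the 6 matrix genes called for the difference between days 3 and 1. Their pattern therefore follows in part from the choice. Of the 26 measured genes of the matrix list, 23 were positive on day 3, and the lowest stood at -0.31.

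Matrix processing and other genes were also called between the days. Timp1 was apart between the days by 2.05 ± 0.43 (adjusted p = 0.0419). Plod2, which hydroxylates collagen lysines, had an age difference of -1.39 ± 0.27 on day 1 and 0.59 ± 0.27 on day 3, apart by 1.98 ± 0.39 (adjusted p = 0.0349). The elastic fibre glycoprotein gene Emilin1 went from -1.48 ± 0.30 to 1.27 ± 0.30, apart by 2.76 ± 0.43 (adjusted p = 0.0148), and its old day 3 arrays at 9.43, 9.03 and 8.62 lay above the young ones at 8.30, 7.49 and 7.46. Srpx2, a secreted sushi-repeat protein gene, was apart by 2.80 ± 0.50 and the thrombospondin gene Thbs3 by 3.85 ± 0.76, with adjusted p of 0.0272 and 0.0349. Thbs3 read 8.51, 8.03 and 7.36 in old callus and 7.38, 4.27 and 5.23 in young callus, where the arrays lay far apart. The centrosomal gene Cdk5rap2 went from -1.54 ± 0.32 to 1.54 ± 0.32, apart by 3.08 ± 0.46 (adjusted p = 0.011). Nol4l was apart by 2.98 ± 0.61 (adjusted p = 0.0419).

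The 23 genes with a negative difference between the days included Psg28, Adgrv1 and Dach1. Psg28 is a pregnancy-specific glycoprotein gene. It averaged 10.32 in old and 9.20 in young callus on day 1 and read 6.19, 6.26 and 6.63 in old and 8.43, 7.59 and 8.01 in young callus on day 3. Its age difference went from 1.12 ± 0.34 to -1.65 ± 0.34, apart by -2.77 ± 0.48 (adjusted p = 0.0249), and on day 5 it was 0.03 ± 0.34. Adgrv1, an adhesion receptor gene, was near the bottom of the scale in old callus at 4.09, 4.10 and 4.74 and read 5.60, 6.07 and 6.24 in young callus. Its difference was -1.66 ± 0.35 on day 3 and was apart from day 1 by -2.60 ± 0.50 (adjusted p = 0.0328). The transcription factor gene Dach1 differed by -1.46 ± 0.36 on day 3, without overlap, and was apart from day 1 by -2.33 ± 0.51 (adjusted p = 0.0487). None of these 3 genes was called on day 3 alone.

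No probe set was called when the age difference of day 3 was set against that of day 5 (0.0%), although 1791 (6.45%) had an unadjusted p under 0.05 in limma. Without young day 3 replicate 1 the count was 8. Crabp2 and Slc27a3, for example, had age differences of 1.69 ± 0.21 and 1.83 ± 0.24 on day 3 and of 0.53 ± 0.21 and 0.54 ± 0.24 on day 5, and Aspn of 0.88 ± 0.32 and 0.80 ± 0.32.

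Signalling genes of repair gave small lists of separated arrays and no calls. Of 33 measured genes of the TGF-beta and BMP pathway, which drives matrix synthesis and skeletal differentiation, the old arrays lay above the young ones in 6 and below in 1, against 6.99% and 5.32% of all genes, with a median of 0.12. Tgfb1, the ligand released by platelets and macrophages, read 10.01, 9.66 and 9.63 in old and 9.34, 9.58 and 8.92 in young callus, a difference of 0.49 ± 0.27 (adjusted p = 0.533). Tgfbi, an adhesion protein induced by TGF-beta, read 12.40, 12.55 and 11.87 against 11.36, 11.42 and 11.41, a difference of 0.88 ± 0.18 (adjusted p = 0.115). Ltbp2, which binds microfibrils, and Acvr1, a BMP receptor, differed by 1.20 ± 0.31 and 0.89 ± 0.24 without overlap. Without young replicate 1 the pathway had 5 genes called higher and 0 lower, against 3.77% and 2.2% of all genes in that setting. In the Wnt pathway, 2 of 30 genes were higher and 1 lower on every old array, which is near the shares of all genes (6.99% and 5.32%). Sfrp1, a secreted Wnt binder, read 9.12, 8.46 and 8.50 in old and 7.95, 7.17 and 7.51 in young callus, a difference of 1.15 ± 0.29 on day 3 and 1.75 ± 0.29 on day 5. Sost, the Wnt inhibitor of osteocytes, differed by -1.01 ± 0.38 without overlap.

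No inflammatory, cartilage or bone gene of the lists was called on day 3. Of 30 measured genes in a list of key fracture repair genes, 0 were called and 1, Tgfb1, was higher on every old array and 0 lower, below the 6.99% and 5.32% of all genes, with a median of 0.31 and a range from -1.05 to 1.24. Of 21 inflammatory cytokine and chemokine genes, 2 were higher on every old array and 0 lower, against 6.99% and 5.32% of all genes, with a median of 0.26. The cytokine Il6 read 6.48, 7.70 and 7.18 in old and 5.92, 6.39 and 6.91 in young callus, and overlapped. Cxcl5, which attracts neutrophils, read 9.26, 10.13 and 9.81 against 8.38, 8.05 and 8.63, a difference of 1.38 ± 0.50 without overlap (adjusted p = 0.323). Il11, a cytokine of stromal cells, read 7.66, 7.96 and 6.91 in old and 7.24, 4.61 and 5.46 in young callus, a difference of 1.74 ± 0.61, and 2.47 (adjusted p = 0.0215) without young replicate 1. Leaving out any other single day 3 array gave 0 calls among the 21 cytokine and chemokine genes. Neutrophil genes had a median of -0.19 over 19 genes with 0 separated.

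Cartilage markers were uneven among the young arrays. Of 21 chondrocyte genes, 0 were higher and 1 lower on every old array, against 6.99% and 5.32% of all genes, with a median of -0.24. Col2a1, the main collagen of cartilage, read 6.95, 7.55 and 6.84 in old and 8.34, 9.58 and 5.77 in young callus, a difference of -0.78 ± 0.62 that became 0.07 without young replicate 2. Col10a1, the collagen of hypertrophic chondrocytes, was at the bottom of the scale on 5 of the 6 arrays, from 4.13 to 4.25, and at 7.25 on young replicate 2. Snorc, a small chondrocyte proteoglycan, lay between 5.86 and 5.93 in old and between 6.00 and 8.74 in young callus, a difference of -1.36 ± 0.52 (adjusted p = 0.333). Sox9, the transcription factor that starts chondrogenesis, differed by 0.70 ± 0.35 with overlap. Young replicate 2 had the highest chondrocyte score of the 6 arrays, at 0.08, and the lowest muscle score. Osteoblast and bone matrix genes had a median of 0.20 over 16 genes with 0 higher and 1 lower on every old array, against 6.99% and 5.32% of all genes. The osteoclast enzymes Acp5 and Ctsk differed by -0.90 ± 0.36 and -0.68 ± 0.32, with overlap, and among 13 osteoclast genes 1 was higher and 2 lower on every old array, against the same shares of all genes.

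Among growth and metabolism lists, 5 of 19 cholesterol and fatty acid synthesis genes were higher on every old array and 0 lower, against 6.99% and 5.32% of all genes, with a median of 0.24. Sqle, an oxygenase of cholesterol synthesis, read 7.44, 7.67 and 7.68 in old and 7.24, 6.01 and 6.84 in young callus, a difference of 0.90 ± 0.28 (adjusted p = 0.251). Mvd, another enzyme of the pathway, differed by 0.73 ± 0.49. Cell cycle genes had a median of 0.21 over 29 genes, with 3 higher on every old array and 0 lower, against the same 6.99% and 5.32%. Myc, a transcription factor of cell growth, read 8.39, 8.18 and 7.84 in old and 7.53, 6.92 and 7.48 in young callus, a difference of 0.83 ± 0.21 (adjusted p = 0.169). Muscle genes had positive differences in 30 of 30 cases with a median of 1.11, while the old and young arrays overlapped in every one of them. Without young replicate 2 the muscle median was -0.49. Among markers of other cells of the callus, 11 platelet genes had a median of 0.63, 22 endothelial genes of 0.27, 14 adipocyte genes of -0.47 and 16 erythroid genes of -0.03, and 1 endothelial gene was higher and 1 endothelial and 1 adipocyte gene lower on every old array, against 6.99% and 5.32% of all genes.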

How the data were processed

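The authors deposited linear intensity values, as a table of 45101 probe sets by 18 arrays. RNA was extracted with Trizol and labelled by the Affymetrix protocol, per the labels. How signals were computed is not given in the sources used here. Once 2% of values were trimmed at each end, every array averaged 150, and array medians ran from 35.99 to 72.38. For arrays, the number of arrays limits the precision.

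Signals were taken as log2(value + 16). Array medians then differed by 0.77, above the limit of 0.5, so arrays were quantile normalized. The 64 control probe sets were left out, and a probe set was tested if above its array's median on at least 3 arrays. All 18 arrays entered 1 limma model (3.58.1, R 4.3.3; lmFit, eBayes with trend=TRUE, 12 residual degrees of freedom) with a mean per group. Symbols came from the platform annotation of 2016: it pairs 34958 probe sets with 1 gene, 932 with several and 9211 with none, and 34754 symbols were updated through their gene identifier. Of several tested probe sets the one with the highest mean stood for the gene, giving 12921 genes.

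The comparison, the gene lists and the tests were chosen with earlier results of these data known. Genes were named by rule: up to 15 called genes each way without overlap, per list the called and up to 4 other members with the largest difference, up to 8 genes each way for a difference between days, and the key repair and strain genes; others are said to be named after their values were seen. Lists are described by counts and medians, with no set test. Same-numbered arrays of day 3 correlated in their deviations at -0.036, -0.101 and 0.184. With 3 arrays per group these values cannot decide whether the numbers pair arrays. The labels do not say that they do, and the main fit does not use the numbers. The script was tested on simulated data of the day 3 comparison, over 27746 probe sets with 50 changed at each size. In these data a probe set had the same spread on every array. The script called 0 of 50 at a log2 change of 0.5, 11 at 1, 47 at 2, 50 at 3, and 4 of 27546 unchanged ones. Alternatives were other scalings, pseudocounts, filters, weights, covariates, and arrays left out in turn.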

Additional observations from a re-analysis of the deposited data

Results flagged for a closer look

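The age difference of day 3 was tested against that of day 1, and 164 probe sets differed between the days at an adjusted p under 0.05 (limma). They are listed here because the same contrast of ages gave different values on different days; values are log2, day 3 difference minus day 1 difference, with the SE. For genes called on day 3 this is not a separate test, because it holds the day 3 difference that they were called for. Among them, Erdr1 was apart by -3.86 ± 0.50, Mid1 by -2.95 ± 0.43, Slc27a3 by 2.08 ± 0.35, Crabp2 by 1.93 ± 0.30 and Cep152 by 1.52 ± 0.27. The called probe sets of Wdfy1 were apart by 1.62 ± 0.34 and 1.64 ± 0.31 and that of Col8a1 by 1.69 ± 0.37. Among matrix genes, the values were 2.65 ± 0.59 for Col5a1, 2.06 ± 0.40 for Col5a2, 2.68 ± 0.56 for Col12a1, 2.76 ± 0.46 for Aspn, 1.64 ± 0.32 for Lum and 2.19 ± 0.44 for Lox. Among matrix processing genes they were 2.05 ± 0.43 for Timp1 and 1.98 ± 0.39 for Plod2. Among other genes of secreted proteins they were 2.76 ± 0.43 for Emilin1, 2.80 ± 0.50 for Srpx2 and 3.85 ± 0.76 for Thbs3. Cdk5rap2 was apart by 3.08 ± 0.46 and Nol4l by 2.98 ± 0.61. Psg28, Adgrv1 and Dach1 were apart by -2.77 ± 0.48, -2.60 ± 0.50 and -2.33 ± 0.51. The count of 164 moved with single arrays, from 6 without old day 3 replicate 1 to 1737 without young day 3 replicate 1. Dixon's test of outlying samples was not run, since each group holds 3 arrays.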

How the results depend on the processing

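The main count of day 3 calls was 16. It was 23 with the values as deposited, 11 without a filter, 14 with a pseudocount of 64 and 14 with trend=FALSE. It was 8 with a pseudocount of 1, 9 with a filter at the 75th percentile, 9 without probe sets that can cross-hybridise, 143 with arrays centred on their medians, 37 with the skeletal muscle score as a covariate and 8033 with array weights. Young day 3 replicates 1, 2 and 3 had weights of 0.224, 0.298 and 3.82, so the weighted young mean rested mostly on replicate 3. This limit holds for every count given with array weights. Adding the Actb ratio to the model gave 2 calls and an added 2-fold threshold 2, all of them lower in old callus. It was 3 with only the 6 arrays of day 3 and 3 without young day 3 replicates 2 and 3, where the lone young array takes its spread from the other groups by assumption. Leaving out single arrays gave 5 to 1602. For the difference between days 3 and 1 the main count of 164 became 2067 with centred arrays, 280 as deposited, 108 with a pseudocount of 1, 95 with the stricter filter, 82 without a filter, 2535 with array weights, 0 with the Actb ratio (2765 at an unadjusted p under 0.05), 1 with the 2-fold threshold and 8 without young day 3 replicates 2 and 3. Leaving out single arrays gave 6 to 1737. For days 3 and 5 the count of 0 became 4806 with array weights and 0 to 8 with single arrays left out. The replicate number as a block gave 8 calls on day 3, 105 for days 3 and 1 and 0 for days 3 and 5. The labels do not say that same-numbered arrays are paired.

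Of the named genes, Col1a1 reversed to -0.29 with the Actb ratio and to -0.56 without young day 3 replicates 2 and 3, and Fn1 to -0.06 without them. Col2a1 reversed to 1.09 with array weights and 0.07 without young day 3 replicate 2. With single arrays left out Col2a1 ranged from -1.85 to 0.07 and Myh4 from -0.24 to 3.01. Myh4 reversed to -0.63 with the Actb ratio, -0.24 without young day 3 replicate 2 and -0.85 without replicates 2 and 3. Over the alternatives of the named genes, 1412 kept their direction and side of the threshold, 71 lost a call, 104 gained one and 8 reversed. List medians moved by more than the spread between arrays in 80 cases and by less in 998. The muscle list had a wide spread on the young arrays, so even reversals of its median of 1.11 are among the 998. It became -0.83 with the Actb ratio and -0.49 without young day 3 replicate 2. The count of 998 therefore does not show that these medians kept their direction. The causes were not tested.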

Other observations

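Some immunoglobulin and eosinophil genes, named after their values were seen, had wide differences on day 3 that were not called. Igha, the constant region of immunoglobulin A, read 11.94, 11.67 and 9.39 on the old day 3 arrays and 7.64, 8.52 and 5.84 on the young ones. The difference was 3.67 ± 0.98 without overlap (limma adjusted p = 0.19), and on days 1 and 5 it was 1.40 ± 0.98 and -0.74 ± 0.98. Igkv8-30, a kappa light chain segment whose probe set can also read related segments, differed by 2.94 ± 0.89. Jchain, which joins secreted immunoglobulins, and Ighm differed by 2.01 ± 0.86 and 1.73 ± 0.73 with overlapping arrays, young replicate 2 being the highest young array for both. These were chosen among the higher genes: of 19 measured B cell and plasma cell genes 9 had a positive difference, with a median of -0.01 and a range from -1.14 to 2.01, and 1 was higher and 2 lower without overlap, against 6.99% and 5.32% of all genes. The eosinophil granule genes Prg2 and Epx ran the other way. Prg2 read 7.95, 6.24 and 8.06 in old and 8.45, 11.99 and 9.03 in young callus, a difference of -2.41 ± 0.93 without overlap (adjusted p = 0.342), and -1.33 without young replicate 2. Epx differed by -1.62 ± 0.61 (adjusted p = 0.328). On day 5 the differences of Prg2 and Epx were -3.63 ± 0.93 and -2.63 ± 0.61.

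Of 27746 tested probe sets, 18 read lower on all 6 old arrays of days 3 and 5 than on any of the other 12. Another 30 read higher on all of those 6 arrays than on any of the other 12. Of the day 3 calls, 4 were among the lower ones and 2, both of Wdfy1, among the higher ones. Both tested probe sets of Nnt were also among the higher ones.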
